A study of Mus musculus with 4 samples.

Results

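The genes described here are 37 type I interferon stimulated genes of the mouse, taken by gene symbol from a list and found in full among the 55401 genes of the count tables. RNA-seq reads of poly(A)-selected RNA were counted per gene in 4 libraries of semimembranosus muscle, a hamstring muscle of the thigh, from C57BL/6 mice aged 8 weeks. Both groups had a stenosis of the left external iliac vein, made by tying the vein over a 30-gauge needle, so no library gives the level in an unoperated limb. The IVS group (2 libraries, replicates 1 and 2) was given normal saline into the stomach each day. The IVS_diosmin group (2 libraries, replicates 1 and 2) was given diosmin, a plant flavonoid used as a drug for venous disease, in the same way at 40 mg per kg per day. The comparison addresses how muscle RNA differs between mice with the stenosis that did and did not receive diosmin.

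Type I interferons are secreted proteins that bind a receptor made of IFNAR1 and IFNAR2 on nearly every cell. The receptor's kinases, JAK1 and TYK2, phosphorylate STAT proteins, STAT2 among them, which join IRF9 and bind a DNA sequence called the interferon-stimulated response element. The genes switched on in this way include sensors of foreign nucleic acid, regulators that strengthen or limit the signal, and effectors that block steps of virus growth. In the list, 7 genes were grouped as sensors, 16 as regulators and 14 as effectors.

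The response element was looked for in the promoters of the members, to show which of them carry it near the start site. RefSeq windows on GRCm38.p6 (the build also called mm10), from 250 bases before to 50 bases after the start of a gene, were available for 28 of the 37 members. Only the first listed window of a gene was searched. Ifit2, Irf1, Irf9, Sp100 and Trim30a had more than 1. The core searched was GAAA, any pair of bases, then GAAA, on both strands. It was present in 12 of the 28 windows, or 42.9% (95% exact binomial interval 24.5 to 62.8), against 3.49% of all 27025 windows of the same length. In Ddx58, Eif2ak2, Ifih1 and Ifitm3 the core lay only after the start site. Searching only the 250 bases before the start left 8 members (28.6%) and 3.04% of all windows. Adding a C to the end of the core, in the whole window, left 11 members (39.3%) and 0.840% of all windows. A gamma-activated site, TTC, any 3 bases, then GAA, a motif of genes that respond to interferon gamma, was present in 7 members (25.0%) and 8.47% of all windows. Stretches of 5 of these windows are printed 5′ to 3′ on the strand of the gene, and capitals mark the core, which reads TTTC on both sides where it lies on the other strand. They were picked to show a called gene (Rsad2), a pair of neighbouring effectors (Ifit1 and Ifit3), and overlapping copies (Isg15 and Oas1a). They lie at chr12:26456551-26456584 on the minus strand for Rsad2, chr19:34640773-34640825 on the plus strand for Ifit1, chr19:34583361-34583428 on the plus strand for Ifit3, chr4:156200863-156200908 on the minus strand for Isg15 and chr5:120907526-120907557 on the minus strand for Oas1a.
Rsad2: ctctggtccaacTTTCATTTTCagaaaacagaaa
Ifit1: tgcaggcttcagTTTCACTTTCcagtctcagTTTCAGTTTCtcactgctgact
Ifit3: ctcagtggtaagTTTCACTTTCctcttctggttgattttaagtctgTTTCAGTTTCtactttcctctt
Isg15: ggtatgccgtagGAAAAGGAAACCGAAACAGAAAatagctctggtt
Oas1a: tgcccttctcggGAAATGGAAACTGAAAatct
A match is a run of letters and not a measured binding site, and a window without one says only that these letters are not in it.

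Most of the genes had their highest level in a single library, IVS_diosmin replicate 1. Of the 37 members, 36 had enough reads to be tested, and 6 of these rose under diosmin by edgeR's quasi-likelihood test with Benjamini-Hochberg adjustment (threshold 0.05): the sensor Zbp1, the regulators Irf7 and Oasl2, and the effectors Mx2, Rsad2 and Xaf1. Over all 13533 tested genes, 1.17% were called higher and 1.78% lower, and no member was called lower. At an unadjusted p under 0.05, 19 of the 36 members were higher and 0 lower, against 7.91% and 8.91% of all tested genes, and DESeq2 called 0 members lower as well. The members were chosen with earlier results of these data known, so their excess over all tested genes is not independent support. Fitted values were higher with diosmin for 33 members and lower for Irf1, Lgals3bp and Ifitm3. The median log2 fold change of the tested members was 1.20, beside 0.01 over all tested genes. Zbp1 and Mx2 passed the filter on low counts through the diosmin libraries alone, so a difference was built into their passing it, and Mx1 did not pass.

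**Figure D1:**
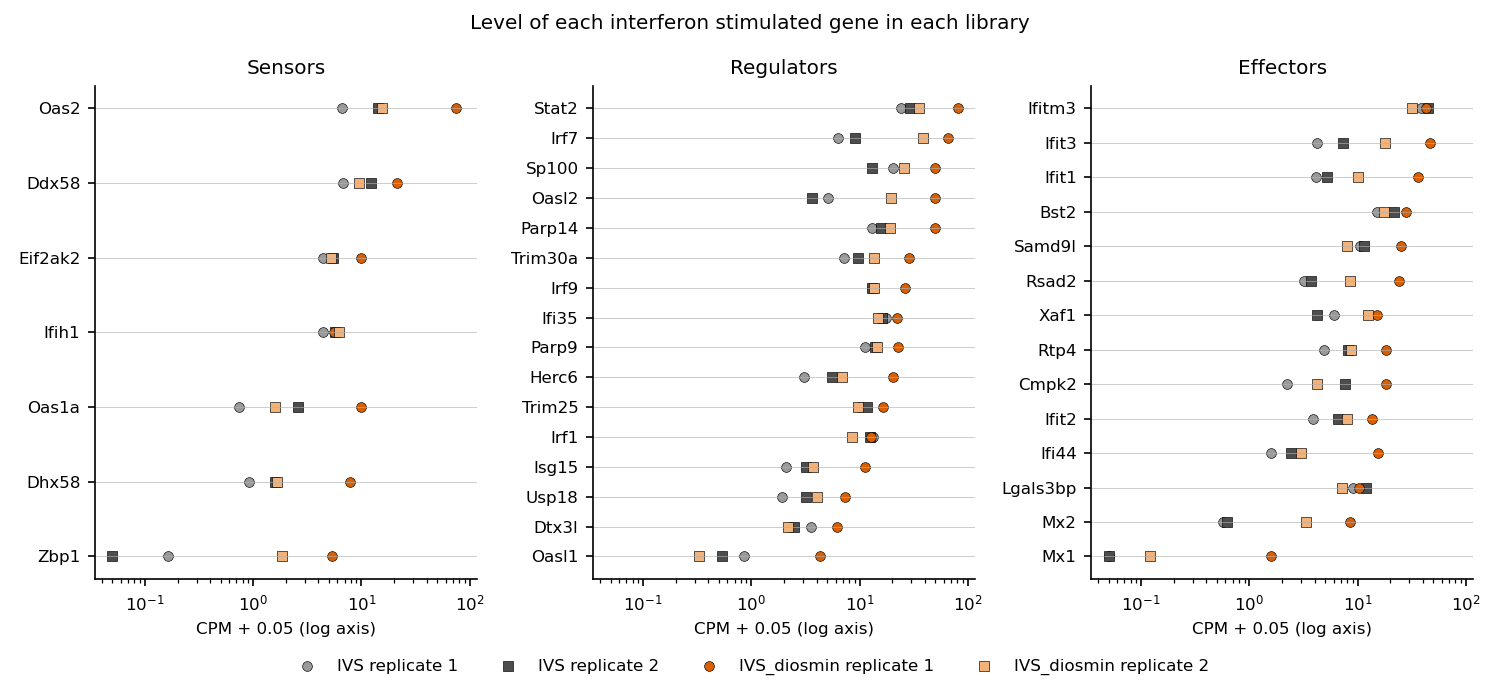
Level of each of the 37 members in each of the 4 libraries, as TMM-normalised CPM plus 0.05 on a log axis, in panels for sensors, regulators and effectors. The dark orange circles of IVS_diosmin replicate 1 lie to the right of all other points for 32 of the 36 tested members, whereas the light orange squares of replicate 2 often lie among the grey points of the IVS libraries.

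The libraries of the diosmin group differed from each other across nearly the whole list. Levels are given as CPM, the usual unit of counts relative to library size, with library sizes normalised by TMM. IVS_diosmin replicate 1 was the highest of the 4 libraries in 32 of the 36 tested members, against 24.9% of all tested genes. It lay above IVS_diosmin replicate 2 in 35 members and at more than 2 times its level in 21, against 50.5% and 6.77% of all tested genes. The median ratio of replicate 1 to replicate 2 was 2.25 over the members and 1.00 over all tested genes. Set against the mean of the IVS libraries, the median ratio of the members was 3.01 in IVS_diosmin replicate 1 and 1.33 in replicate 2, while that of all tested genes was 0.996 and 0.983. IVS_diosmin replicate 2 lay above both IVS libraries in 23 members, against 36.6% of all tested genes. Both diosmin libraries lay above both IVS libraries in 22 of the 36, against 23.4% of all tested genes. The IVS libraries were closer, although replicate 2 was above replicate 1 in 27 of the 36, against 51.3% of all tested genes.

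**Figure D2:**
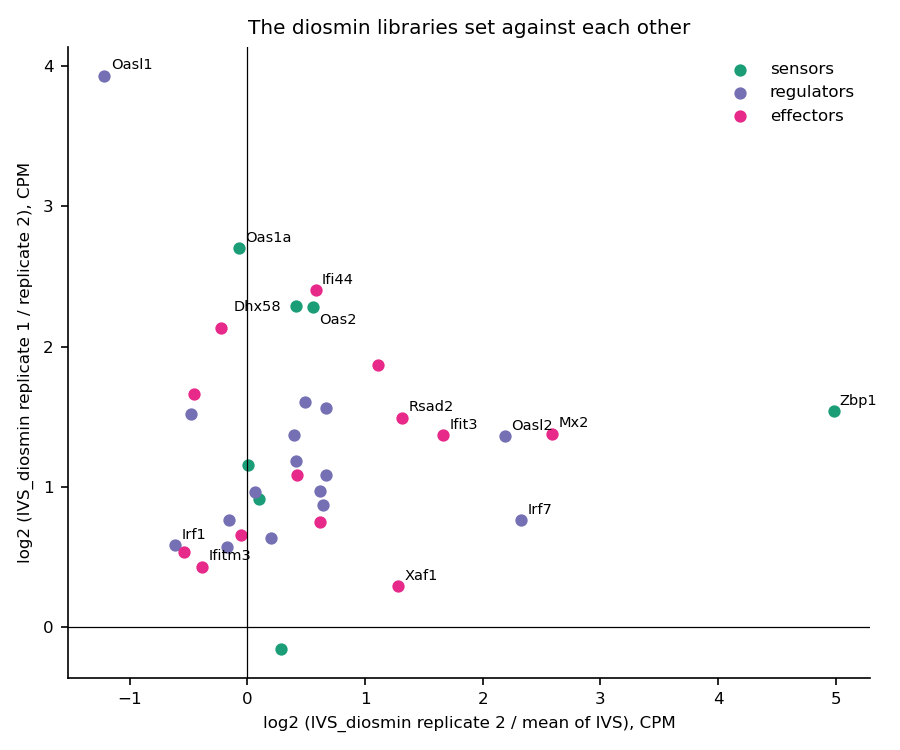
Each point is a tested member: the horizontal axis gives the log2 ratio of IVS_diosmin replicate 2 to the mean of the IVS libraries, and the vertical axis the log2 ratio of IVS_diosmin replicate 1 to replicate 2, both from CPM. Points lie above the horizontal line in 35 of 36 cases, and Irf7 and Xaf1 lie lower on the vertical axis than the other 4 called genes.

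The calls depended on which library was left out, with a lone library then assumed to vary like the other group. Without IVS_diosmin replicate 1, Irf7 was the only member called (1 of 36, against 0.188% of all genes tested in that fit), and the median log2 fold change of the members was 0.42. Without IVS_diosmin replicate 2, 17 members were called, against 0.984% of all genes, and the median was 1.59. Those 17 held 5 of the 6 members called with all libraries, the exception being Xaf1. Without IVS replicate 1 there were 4 calls (Zbp1, Irf7, Mx2 and Xaf1, against 0.77% of all genes), and without IVS replicate 2 there was 1 (Irf7, against 0.256%). Irf7 was thus called in each of the 4 fits that left out a library. The test in DESeq2 called 14 members, the 6 among them, against 2.17% of all genes called higher by it.

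**Figure D3:**
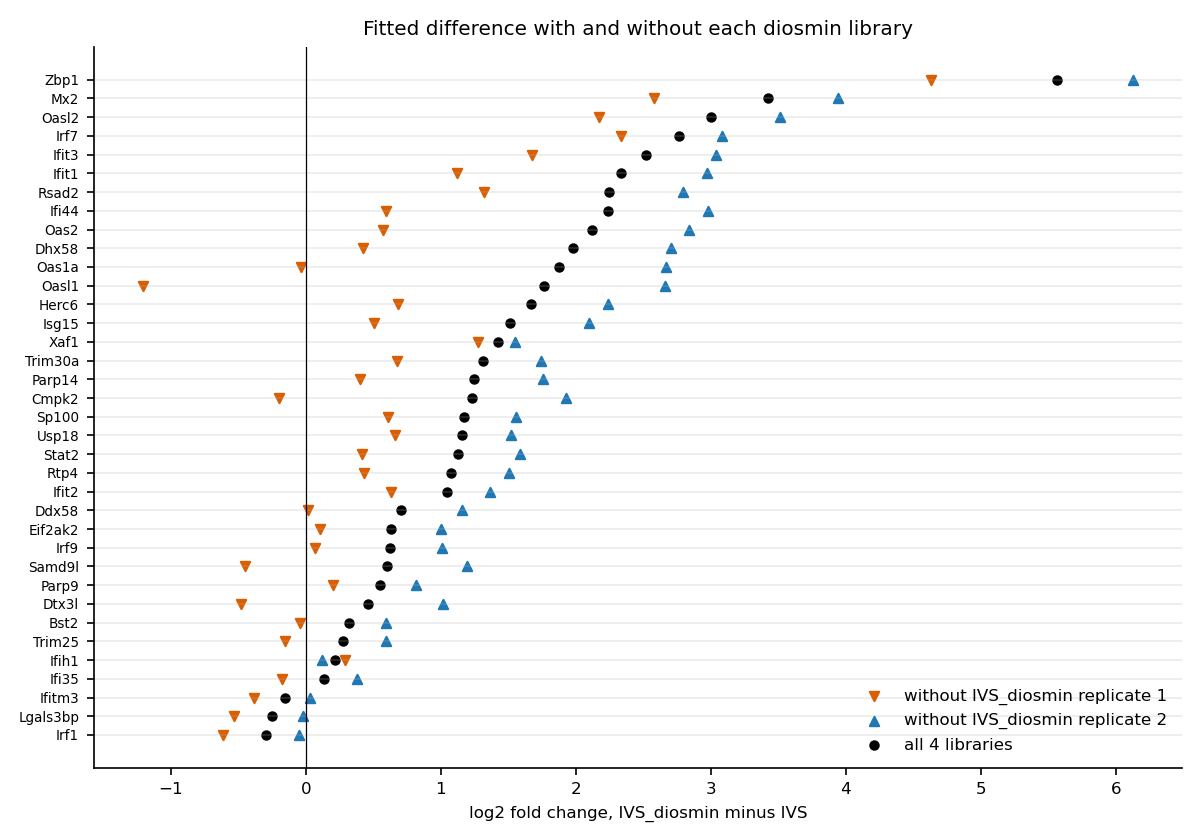
Fitted log2 fold change of each tested member with all 4 libraries (black circles), without IVS_diosmin replicate 1 (orange triangles) and without IVS_diosmin replicate 2 (blue triangles). The orange triangles lie left of the black circles for every member but Ifih1, and left of 0 for Oas1a, Oasl1, Cmpk2, Samd9l, Dtx3l, Bst2, Trim25 and Ifi35 as well as for the members whose black circle is already there.

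Among the sensors 1 of 7 rose, against 1.17% of all tested genes. This was Zbp1, which passed the filter on low counts through the diosmin libraries alone. The median log2 fold change of the sensors was 1.88 with all libraries, 1.17 without IVS replicate 1 and 0.29 without IVS_diosmin replicate 1. It was higher, at 2.43 and 2.67, without IVS replicate 2 and without IVS_diosmin replicate 2. Zbp1 (mm10 chr2:173206612-173218923) encodes a protein that binds Z-form nucleic acid and can start inflammatory cell death. It had 2 and 0 counts in IVS replicates 1 and 2, and 68 and 26 counts in IVS_diosmin replicates 1 and 2. Both diosmin libraries were far above the IVS libraries, and the ratio of the groups was 51.2 with a 95% interval of 13.8 to 429 that covers counting error only. The adjusted p was 0.0121. Leaving out IVS replicate 2 gave 0.0803, and leaving out IVS_diosmin replicate 1 gave 0.263.

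Oas2 and Oas1a encode oligoadenylate synthetases, which make the short RNA that activates RNase L when they meet double-stranded RNA, and both genes were far higher in IVS_diosmin replicate 1 than in any other library. For Oas2 the IVS libraries gave 6.58 and 14.2 CPM, and the diosmin libraries 74.2 (replicate 1) and 15.3 CPM (replicate 2) (log2 fold change 2.12 ± 1.02 (SE), adjusted p = 0.449). IVS_diosmin replicate 2 was thus next to IVS replicate 2, and replicate 1 was 4.86 times as high as replicate 2. Oas1a was at 0.686 and 2.52 CPM in IVS and at 9.95 and 1.53 CPM with diosmin, and the groups overlapped. Of the 50-base words in the transcripts of Oas1a, 57.6% also occur in its neighbour Oas1g, so its count is uncertain.

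The RNA helicases that detect viral RNA in the cytosol differed among themselves. Dhx58, which encodes LGP2, was at 0.858 and 1.54 CPM in IVS and at 7.79 and 1.60 CPM with diosmin (log2 1.98 ± 0.72, adjusted p = 0.196). Ddx58, which encodes RIG-I, was at 6.75 and 12.2 CPM in IVS and at 21.2 and 9.51 CPM with diosmin, with overlapping groups. Ifih1, which encodes MDA5, was at 4.35 and 5.69 CPM in IVS and at 5.47 and 6.11 CPM with diosmin, and was the only tested member with a higher level in IVS_diosmin replicate 2 than in replicate 1. Eif2ak2, which encodes PKR, the kinase that halts translation on binding double-stranded RNA, was at 4.35 and 5.36 CPM in IVS and at 9.79 and 5.21 CPM with diosmin.

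Of the 16 regulators 2 rose, against 1.17% of all tested genes. Their median log2 fold change was 1.16 with all libraries and 0.41 without IVS_diosmin replicate 1. Irf7 (mm10 chr7:141262706-141266481) encodes the transcription factor that amplifies the production of type I interferons. The IVS libraries gave 6.29 and 9.02 CPM, and the diosmin libraries 65.1 (replicate 1) and 38.4 CPM (replicate 2). The groups were well apart, and the log2 fold change was 2.76 ± 0.30 (SE, adjusted p = 0.00148). Irf7 had the smallest p of the members and ranked 9 by p among the 13533 genes. Its log2 fold change was 2.33 (adjusted p = 0.0316) without IVS_diosmin replicate 1 and 3.08 (adjusted p = 4e-05) without IVS_diosmin replicate 2. Its exons share 45 bases with Phrf1 on the opposite strand, which is 1.19% of the exon bases of Irf7.

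Oasl2 (mm10 chr5:114896936-114912234) encodes a relative of the oligoadenylate synthetases that carries ubiquitin-like domains. Its level was 5.03 and 3.58 CPM under saline, and 50.2 (replicate 1) and 19.6 CPM (replicate 2) under diosmin. Both diosmin libraries were above both IVS libraries, and the log2 fold change was 3.00 ± 0.47 (adjusted p = 0.0236). The adjusted p became 0.0718 on leaving out IVS replicate 1, 0.116 on leaving out IVS replicate 2 and 0.0719 on leaving out IVS_diosmin replicate 1. Its neighbour Oasl1, 11.0 kb away on chromosome 5, encodes a protein that represses the translation of Irf7 RNA. It was at 0.800 and 0.488 CPM in IVS and at 4.24 and 0.278 CPM with diosmin, so that IVS_diosmin replicate 2 had the lowest level of all 4 libraries and replicate 1 the highest.

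The factors that carry the signal to the nucleus did not pass the test. Stat2 was at 23.8 and 29.4 CPM in IVS and at 80.7 and 35.5 CPM with diosmin (log2 1.13 ± 0.36, adjusted p = 0.162). Irf9, its DNA-binding partner, was at 13.0 and 12.9 CPM in IVS and at 26.4 and 13.6 CPM with diosmin (log2 0.62 ± 0.30, adjusted p = 0.319). The groups did not overlap for Stat2 and Irf9, but IVS_diosmin replicate 2 was 1.33 and 1.05 times the mean of IVS. Irf1, a factor that is also induced by interferon gamma, was at 13.3 and 12.4 CPM in IVS and at 12.6 and 8.40 CPM with diosmin.

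The genes of the ubiquitin-like protein ISG15, of a ligase that attaches it and of a protease that removes it gave the same order of libraries. Isg15 was at 2.06 and 3.17 CPM in IVS and at 11.2 and 3.68 CPM with diosmin (log2 1.51 ± 0.52, adjusted p = 0.161). Herc6, which encodes a mouse ligase that attaches ISG15 to other proteins, was at 3.03 and 5.53 CPM in IVS and at 20.1 and 6.80 CPM with diosmin (log2 1.67 ± 0.53, adjusted p = 0.161). Usp18, which encodes the protease that removes ISG15 and also restrains the interferon receptor, was at 1.89 and 3.17 CPM in IVS and at 7.25 and 3.96 CPM with diosmin (log2 1.16 ± 0.45, adjusted p = 0.206). For each of these 3 genes IVS_diosmin replicate 2 was just above IVS replicate 2, and replicate 1 was 1.83 to 3.04 times as high as replicate 2.

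Other regulators with separate groups were Trim30a, Sp100, Parp14 and Parp9. Trim30a, of the TRIM family of ubiquitin ligases, was at 7.20 and 9.67 CPM in IVS and at 28.4 and 13.4 CPM with diosmin (log2 1.31 ± 0.35, adjusted p = 0.0765). Sp100, a component of nuclear bodies, was at 20.4 and 13.1 CPM in IVS and at 50.04 and 25.6 CPM with diosmin (log2 1.17 ± 0.34, adjusted p = 0.114). Parp14, an ADP-ribosyltransferase, was at 13.0 and 15.8 CPM in IVS and at 49.2 and 19.0 CPM with diosmin (log2 1.24 ± 0.42, adjusted p = 0.198). Parp9 and Dtx3l, whose proteins form a complex and whose genes share 458 bases of exon on opposite strands, had log2 fold changes of 0.55 and 0.46. Parp9 was at 11.2 and 13.98 CPM in IVS and at 22.4 and 14.4 CPM with diosmin (adjusted p = 0.33). Its groups were thus barely apart, and the groups of Dtx3l overlapped. Trim25, the ligase that activates RIG-I, and Ifi35 had overlapping groups too, with log2 fold changes of 0.28 and 0.14.

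Of the 13 effectors that could be tested 3 rose, against 1.17% of all tested genes. Mx2, among these 3, passed the filter on low counts through the diosmin libraries alone. The median log2 fold change of the effectors was 1.23 with all libraries and 0.59 without IVS_diosmin replicate 1. It was 1.91 without IVS replicate 2, but that fit also tested Mx1, so this median covers a different set of genes. Mx2 (mm10 chr16:97535308-97560900) belongs to the family of dynamin-like antiviral GTPases and is annotated by GENCODE as a polymorphic pseudogene. The saline libraries held 0.515 and 0.569 CPM, and the diosmin libraries 8.48 (replicate 1) and 3.26 CPM (replicate 2). The groups were far apart at these low levels (9, 7, 110 and 47 counts), and the log2 fold change was 3.42 ± 0.59 (adjusted p = 0.0102). Leaving out IVS replicate 2 gave an adjusted p of 0.0754, and leaving out IVS_diosmin replicate 1 gave 0.225. Mx1, 72.4 kb from it, had 0 counts in both IVS libraries and 20 and 1 counts in IVS_diosmin replicates 1 and 2, at least 7.62-fold higher when the IVS group is set to a floor of 3 counts over the group. The exact 95% interval of that ratio, for counting error only, starts lower, at 5.67, and 95.2% of the diosmin counts were in replicate 1. C57BL/6 mice carry an Mx1 allele that makes no working protein.

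Rsad2 (mm10 chr12:26442746-26456452) encodes viperin, an enzyme that makes a nucleotide that ends the growing chain of viral RNA. Saline libraries were at 3.14 and 3.66 CPM, and diosmin libraries at 23.8 (replicate 1) and 8.47 CPM (replicate 2). Both diosmin libraries lay above both IVS libraries, and the log2 fold change was 2.25 ± 0.47 (adjusted p = 0.0395). It missed the threshold without IVS replicate 1 (adjusted p = 0.132), IVS replicate 2 (0.176) and IVS_diosmin replicate 1 (0.255). Cmpk2, 12.8 kb away, encodes a nucleotide kinase that supplies the substrate of viperin. It was at 2.17 and 7.56 CPM in IVS and at 18.3 and 4.17 CPM with diosmin, with overlapping groups.

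Xaf1 (mm10 chr11:72301629-72313733), which encodes an antagonist of an inhibitor of apoptosis, had 5.95 and 4.14 CPM under saline, and 15.0 (replicate 1) and 12.3 CPM (replicate 2) under diosmin. Its diosmin libraries were closer to each other than those of any other called member, with replicate 1 at 1.22 times replicate 2. The log2 fold change was 1.42 ± 0.30 (adjusted p = 0.0282). It missed the threshold without IVS replicate 2 (adjusted p = 0.212), IVS_diosmin replicate 1 (0.244) and IVS_diosmin replicate 2 (0.0542).

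The Ifit genes, which lie together on chromosome 19 and encode proteins that bind viral RNA and hold back its translation, did not pass the test. Ifit3 was at 4.12 and 7.23 CPM in IVS and at 46.5 and 17.98 CPM with diosmin (log2 2.52 ± 0.52, adjusted p = 0.0665). Ifit1 was at 4.06 and 5.12 CPM in IVS and at 36.2 and 9.93 CPM with diosmin (log2 2.33 ± 0.63, adjusted p = 0.147). Ifit2 was at 3.83 and 6.58 CPM in IVS and at 13.4 and 7.98 CPM with diosmin (log2 1.05 ± 0.37, adjusted p = 0.161). In all 3 the diosmin libraries were above the IVS libraries, and replicate 1 was 1.68 to 3.64 times as high as replicate 2. Ifit3 shares 51.2% of its 50-base words with Ifit3b, so reads of the pair cannot be fully told apart.

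The remaining effectors were of 2 kinds, those high in IVS_diosmin replicate 1 and those close to level across the libraries. Ifi44 was at 1.54 and 2.36 CPM in IVS and at 15.4 and 2.92 CPM with diosmin, and Rtp4 at 4.80 and 8.04 CPM in IVS and at 18.3 and 8.61 CPM with diosmin. Samd9l, a restriction factor, was at 10.4 and 11.5 CPM in IVS and at 25.2 and 7.98 CPM with diosmin, with IVS_diosmin replicate 2 the lowest library. The log2 fold change was 0.32 ± 0.27 for Bst2, which encodes tetherin, a protein that holds budding virus at the cell surface. It was -0.15 ± 0.22 for Ifitm3, which blocks virus entry at endosomes, and -0.25 ± 0.30 for Lgals3bp, a secreted glycoprotein. Per kilobase of exon, Ifitm3 had the highest level of the list in both groups (61.4 CPM per kb in IVS and 55.3 with diosmin), followed by Bst2 (20.2 and 25.1). Ifi35 came next in IVS (9.71 CPM per kb), and Ifit3 (18.5) and Irf7 (13.7) came next with diosmin, from 3.25 and 2.03 in IVS.

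**Figure D4:**
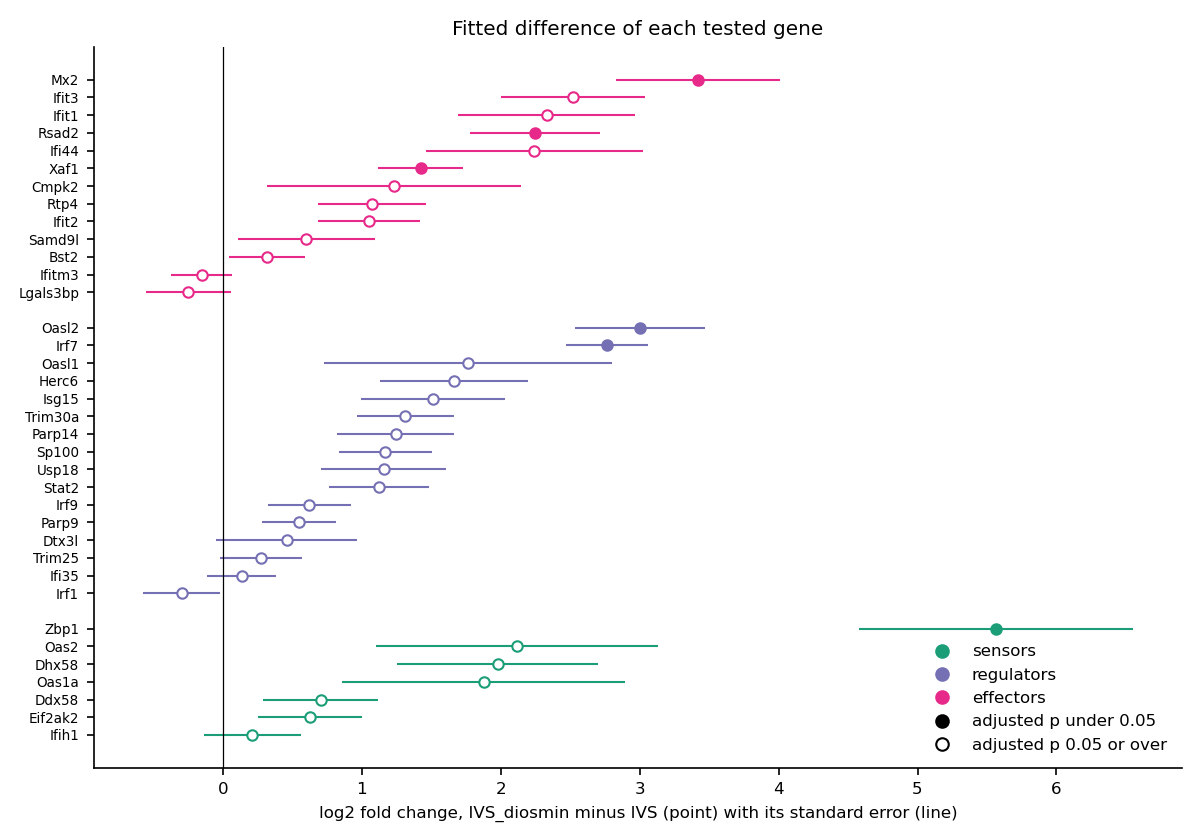
Fitted log2 fold change of IVS_diosmin minus IVS (points) with its standard error (lines) for the 36 tested members, grouped by role. Filled points mark the 6 members with an adjusted p under 0.05, and the widest lines are those of Oasl1 (1.04), Oas1a (1.02) and Oas2 (1.02).

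Promoter matches and values can be set side by side. The 12 tested members whose window held the core had a median log2 fold change of 1.22, with 1 of them called (Rsad2), and the 16 whose window did not had a median of 1.11, with 3 called (Irf7, Oasl2 and Xaf1). Of the genes whose stretches are printed above, Isg15 and Oas1a, with overlapping copies of the core, had log2 fold changes of 1.51 and 1.88. Ifit1 and Ifit3, with 2 separate copies each, had 2.33 and 2.52, and Rsad2, with 1 copy before the start site, had 2.25. Of the genes not printed, Bst2, also with overlapping copies, had 0.32, and Stat2 and Trim30a, with 1 copy each, had 1.13 and 1.31.

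The genes that make and receive the interferon signal were given by lists of their own. All 14 interferon ligand genes looked at, Ifnb1 and Ifng among them, had 0 counts in every library, which allows up to 0.0525 CPM over the 4 libraries. Reads that fit several of the near-identical Ifna genes were not counted, so those zeros are uncertain. Of the 5 tested receptor chains 1 rose, against 1.17% of all tested genes, and it was Ifngr2, a chain of the interferon gamma receptor, from 15.8 ± 1.2 to 30.2 ± 3.8 CPM (SD, n = 2; log2 0.94 ± 0.22 (SE), adjusted p = 0.0405). In each of the 4 fits that left out a library its adjusted p was over the threshold (0.149 to 0.190). Ifngr1, the other chain of that receptor, is named here because of its values: it had 23.3 and 27.5 CPM in IVS and 14.7 and 12.7 CPM with diosmin (log2 -0.89 ± 0.23, adjusted p = 0.0564), with the diosmin libraries below the IVS libraries. For the type I receptor, the log2 fold change was 0.08 for Ifnar1 (adjusted p = 0.925) and -0.69 for Ifnar2 (adjusted p = 0.427). The receptor kinases Jak1 and Tyk2 had log2 fold changes of -0.20 and 0.23 (adjusted p = 0.699 and 0.708).

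In the pathway that leads from sensors to interferon genes 1 of 18 tested genes rose, against 1.17% of all tested genes. This was Mavs, the mitochondrial adaptor on which RIG-I and MDA5 act, with 6.12 and 7.07 CPM under saline and 21.1 (replicate 1) and 15.4 CPM (replicate 2) under diosmin (log2 1.47 ± 0.27, adjusted p = 0.0154). Both diosmin libraries were more than 2 times as high as either IVS library. The adjusted p was 0.0559 on leaving out IVS replicate 1, 0.0770 on leaving out IVS replicate 2 and 0.197 on leaving out IVS_diosmin replicate 1. For Irf3, the factor that MAVS signalling activates, it was -0.26 on the log2 scale (adjusted p = 0.617). Of the 12 tested inhibitors 0 were called, with 3 higher and 1 lower at an unadjusted p under 0.05, a cut that 7.91% and 8.91% of all tested genes reached. Among these Nlrc3, a negative regulator of STING named here after its values were seen, went from 12 and 10 counts in IVS to 251 and 57 counts with diosmin (log2 3.95 ± 0.82, adjusted p = 0.0616). Socs1, the feedback inhibitor of JAK kinases, had 5 and 10 counts in IVS and 2 and 1 with diosmin, too few to test.

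A further 64 interferon stimulated genes outside the list of 37 were looked at, of which 50 could be tested. Of these 2 rose and 0 fell, against 1.17% and 1.78% of all tested genes. At an unadjusted p under 0.05, 16 of the 50 were higher and 2 lower, against 7.91% and 8.91% of all tested genes. Their median log2 fold change was 0.63 with all libraries and 0.19 without IVS_diosmin replicate 1. Apol9b, an apolipoprotein L gene, had 0.457 and 0.650 CPM under saline and 10.02 (replicate 1) and 4.51 CPM (replicate 2) under diosmin (log2 3.72 ± 0.55, adjusted p = 0.00451). It passed the filter on low counts through the diosmin libraries alone, and its adjusted p was 0.139 on leaving out IVS_diosmin replicate 1. Ddx60, a helicase gene, was at 2.63 and 2.36 CPM in IVS and at 11.5 and 6.60 CPM with diosmin (log2 1.85 ± 0.39, adjusted p = 0.0268). Its adjusted p was 0.0576 on leaving out IVS replicate 1, 0.169 for IVS replicate 2 and 0.266 for IVS_diosmin replicate 1. The diosmin libraries were again above the IVS libraries in both genes, with replicate 1 the higher.

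**Figure D5:**
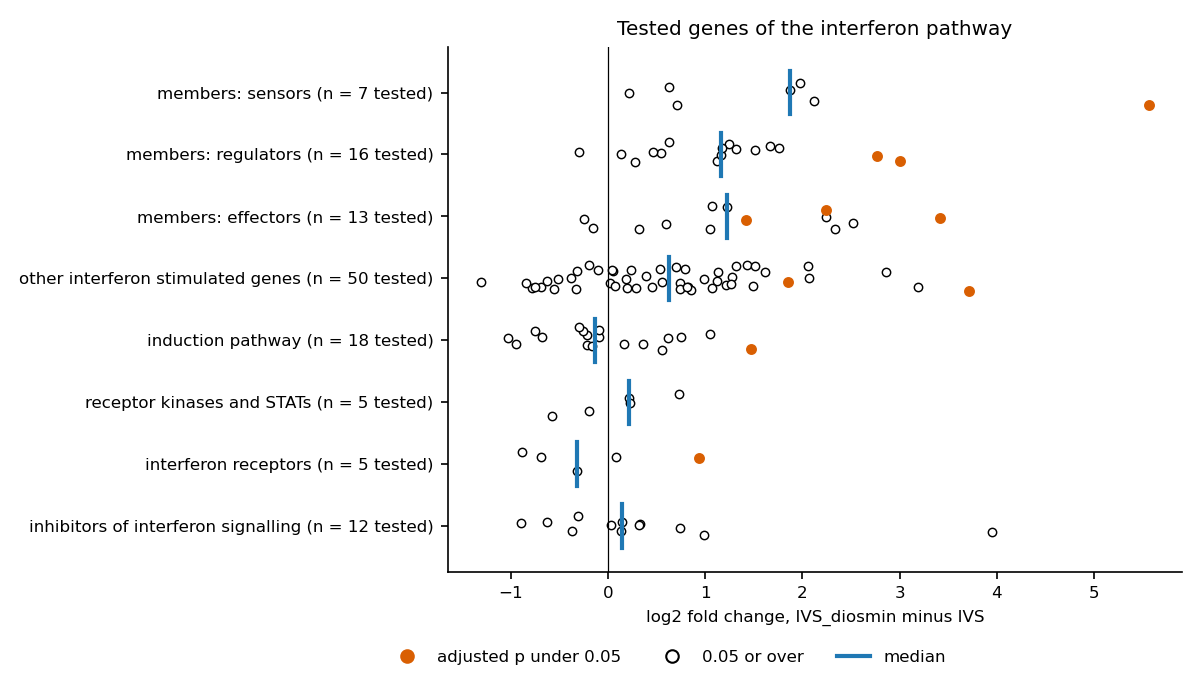
Log2 fold change of IVS_diosmin minus IVS for each tested gene (points), for the members by role and for the other lists of the interferon pathway, with calls filled and the median of each list as a bar. The bars of the 3 member groups stand at 1.16 to 1.88, that of the other stimulated genes at 0.63, and those of receptors, kinases, the induction pathway and inhibitors between -0.32 and 0.22.

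The libraries also differed in depth, RNA classes and cell type markers. Gene counts summed to between 13056650 and 15324354. Pairs of values are given for replicate 1 and then replicate 2. The rRNA-like gene CT010467.1 took 4.14% and 3.80% of gene counts in the IVS libraries and 1.16% and 0.936% in the diosmin libraries, and reads aligned to more than 1 place were 37.7% and 38.8% against 45.6% and 43.6%. Mitochondrial genes took 31.5% and 38.5% of gene counts in IVS and 45.0% and 40.7% with diosmin, and the nuclear RNA Neat1 was at 2583 and 2299 CPM against 4971 and 3211 CPM, both highest in IVS_diosmin replicate 1. All 8 muscle fibre markers were present, at summed levels of 91892 to 101830 CPM over the 4 libraries. Fitted values were higher with diosmin for 4 of these markers and lower for 4. Only Mb was called, at 382 and 277 CPM in IVS and 930 and 547 CPM with diosmin (log2 1.16 ± 0.27, adjusted p = 0.046). All 6 endothelial markers had lower values with diosmin, as did 6699 of the 13533 tested genes. Of the 6, 4 were called lower, against 1.78% of all tested genes. The 6 endothelial markers summed to 357 and 348 CPM in IVS and to 167 and 160 CPM with diosmin. The 8 macrophage markers summed to 26.6 and 55.7 CPM in IVS and to 29.1 and 45.8 CPM with diosmin, without separating the groups, and 5 of 6 T cell markers had at most 4 counts in any library. The other T cell marker, Cd3e, was at 1.54 and 0.731 CPM in IVS and at 3.01 and 1.46 CPM with diosmin, with overlapping groups. The 5 adipocyte markers summed to 415 and 511 CPM in IVS and to 216 and 182 CPM with diosmin. Nearly all of this was Fabp4, at 412 and 503 CPM against 215 and 178 CPM (adjusted p = 0.0121). The groups overlapped for Adipoq (adjusted p = 0.817) and for Plin1. Cidec was lower with diosmin at low levels (log2 -3.12 ± 0.85, adjusted p = 0.076). The 5 erythrocyte markers summed to 3.95 and 18.04 CPM in IVS and to 19.5 and 35.7 CPM with diosmin. All 6 neutrophil markers were at 0 counts, and so were Gzmb and Prf1 of the natural killer list. The plasmacytoid dendritic cell markers, of a cell known for making interferon, summed to 1.37 and 1.46 CPM in IVS and to 2.08 and 1.11 CPM with diosmin, with Ly6d at 0. The largest part of each sum was Ccr9, at 0.686 and 1.38 CPM in IVS and 1.77 and 0.694 CPM with diosmin. Siglech had only 3 and 0 counts in IVS and 4 and 3 with diosmin. Of the B cell markers, Ms4a1 was at 0, Cd79a and Cd79b had at most 10 counts in any library, and Ighm rose from 14.4 and 18.9 CPM to 91.1 and 174 CPM, highest in IVS_diosmin replicate 2 and not in replicate 1. The part of these differences in the values of the interferon stimulated genes was not tested, and in whole tissue a change in the number of cells of a type and a change in RNA per cell cannot be told apart.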

How the data were processed

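Each library came as 1 deposited file of whole-number counts per gene; the values are whole and their totals differ between libraries, so they were taken as raw. HISAT2 2.1.0, HTSeq and the genome mm10 are named per the submitters' processing notes; the annotation, strand setting and filters are not given in the sources used here. Symbols and positions came from GENCODE M21 on mm10 (55141 of 55401 identifiers matched), and 5 summary lines that name no gene were left out. Counts were tested with edgeR 4.0.16 in R 4.3.3 (filterByExpr, TMM, robust quasi-likelihood fit, 2-sided, Benjamini-Hochberg adjustment over 13533 genes, threshold 0.05) and, as an alternative, with DESeq2 1.42.0; both were tested on simulated data. The SE is the log2 fold change over the square root of F. The biological coefficient of variation was 0.235. Ratios of low counts have 95% exact conditional binomial intervals, and a count of 0 allows up to 3 counts; both cover counting error only. Replicates of IVS gave a chi-square of 28.6 per degree of freedom, and those of IVS_diosmin 19.7, so none repeated another within sampling noise. The labels do not say that replicates are separate animals, so the p-values reflect only how far these samples differ, which may be technical variation. An exact permutation test of 2 against 2 cannot go below p = 0.333. The members and lists were chosen with earlier results of these data known. All 37 members are accounted for; values in every library are given for members past the threshold or with a gap between the groups of at least 1 on the log2 scale, and for others where they show the spread; pathway genes are named when called, with Ifnb1, Ifnar1, Ifnar2, Jak1, Tyk2, Irf3, Mavs and Socs1 named whatever their values; some further genes are not reported here. Alternatives were other scalings and filters, a replicate block and each library left out.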

Additional observations from a re-analysis of the deposited data

How the results depend on the processing

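Irf7 was called under all 11 alternatives, at log2 fold changes of 2.33 to 3.08. Zbp1, Oasl2 and Mx2 were called under 8 of them, and Rsad2 and Xaf1 under 7. The other edgeR scalings, the stricter filter and the fit without rRNA-like, Rn7sk and mitochondrial genes each called the same 6 members. DESeq2 called 14 members (7 regulators and 6 effectors) and 11 pathway genes. Without a filter on low counts, 919 genes were called against 400, with 18 members (3 sensors, 8 regulators and 7 effectors), and 15 pathway genes higher and 3 lower. With the replicate number as a block, 93 genes were called, with 2 members (0 sensors, 2 regulators, 0 effectors) and 0 pathway genes; Irf7 and Oasl2 were past the threshold, and Zbp1, Mx2, Rsad2 and Xaf1 were not (adjusted p 0.0581, 0.0779, 0.116 and 0.0964). Same-numbered libraries did not deviate together over all genes (r = 0.01 across 13533 genes, which are not independent). The labels do not say that these libraries are paired, and a correlation over all genes cannot decide it. Leaving out 1 library at a time, 38 to 366 genes were called, with 1 to 17 members (0 to 3 sensors, 1 to 8 regulators, 0 to 6 effectors), 0 to 13 pathway genes higher and 0 to 1 lower, and the members' median log2 fold change ran from 0.42 to 1.59 (sensors 0.29 to 2.67, regulators 0.41 to 1.57, effectors 0.59 to 1.91). The sign turned in these fits for Oas1a (-0.038 to 3.03), Trim25 (-0.15 to 0.59), Dtx3l (-0.48 to 1.01), Oasl1 (-1.20 to 2.66), Ifi35 (-0.17 to 0.38), Cmpk2 (-0.20 to 2.35), Bst2 (-0.044 to 0.60), Samd9l (-0.45 to 1.19) and Ifnar1 (-0.12 to 0.25), at the low end without IVS_diosmin replicate 1, and for Ifitm3 (-0.38 to 0.034), at the high end without IVS_diosmin replicate 2. Without IVS replicate 2, Ifnar1 was at -0.05. Except for the fit without IVS_diosmin replicate 1, these fits also tested Mx1, so their medians for members and effectors include it. The cause was not tested. With 2 libraries a group and few counts for genes such as Mx1, Zbp1 and Oasl1, small differences were not detectable.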
